A study of Mus musculus with 8 samples.

Results

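The growth hormone (GH) response of mouse embryonic fibroblasts was compared between cells with and without the transcription factors STAT5A and STAT5B, gene by gene, as an interaction. The interaction is the GH response of Stat5a/b-null cells minus the GH response of control cells, so that a negative value marks a response that was more positive in the control. All 8 arrays of the series entered, in 4 groups of 2: control cells and null cells, each without the hormone and with it, grouped by array title. The cells of every group were C57BL/6 fibroblasts at passage 13, starved for 5 h and then kept for 2 h with GH at 1 ug/ml or without it. The controls are labelled wild type. The labels do not give the species of the hormone, the part of the Stat5 locus that was deleted, or whether the 2 arrays of a group, numbered 2 and 3 and called biological replicates, came from separate embryos or cultures, so every p-value measures the spread between these arrays alone. The deposited values are log2 expression values on which 18193 genes were tested.

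GH binds its receptor, which activates the kinase JAK2, and JAK2 in turn phosphorylates STAT5A and STAT5B. The STAT5 dimers enter the nucleus, bind the motif TTCNNNGAA and switch on target genes. Among the best known targets are Cish, Socs2 and Socs3, whose products damp the receptor and JAK2, and Igf1, the growth factor that carries much of the action of GH in the liver. Through its receptor GH can also activate STAT3 and the kinases of the ERK pathway. NF-kappaB is a separate family of transcription factors, held in the cytoplasm by inhibitors such as the product of Nfkbia, that drives chemokine and cytokine genes in many cell types.

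The promoter sequences of 3 genes whose GH response was lost in null cells and of 3 genes that NF-kappaB is known to drive are shown. The genes were picked because the former hold the STAT motif and the latter the NF-kappaB motif. Their motifs are therefore not a result about lost responses. The sequences are stretches of the RefSeq promoter windows of the mouse assembly GRCm38.p6. They are read 5′ to 3′ on the strand of the gene, and the capitals mark the motif. Cish lies at chr9:107296654-107296683 on the plus strand, with 2 STAT motifs, the first of which follows the annotated start. Socs3 lies at chr11:117969502-117969531 on the minus strand, with a STAT motif 154 bases before the start. For Bcl6 the window of 1 of its 2 annotated starts, at chr16:23981358-23981457 on the minus strand, holds 3 STAT motifs, the first 168 bases before the start. Cxcl2 lies at chr5:90903801-90903830 on the plus strand, with 2 NF-kappaB motifs, the first 97 bases before the start. Nfkbia lies at chr12:55492657-55492686 on the minus strand, with 1 NF-kappaB motif 29 bases before the start. Csf1 lies at chr3:107760604-107760633 on the minus strand, with 1 NF-kappaB motif 154 bases before the start.
Cish: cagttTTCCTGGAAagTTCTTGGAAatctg
Socs3: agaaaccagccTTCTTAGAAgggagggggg
Bcl6: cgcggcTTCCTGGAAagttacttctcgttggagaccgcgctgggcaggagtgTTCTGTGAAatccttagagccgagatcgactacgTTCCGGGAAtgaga
Cxcl2: aGGGAATTTCCctggtccccGGGCTTTTCC
Nfkbia: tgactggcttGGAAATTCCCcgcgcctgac
Csf1: gggccttgagGGAAAGTCCCtaggggccag

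The genotype labels and the cell type were checked before the responses. Stat5a read 7.83, 7.15, 7.47 and 7.77 on the 4 control arrays and 5.73, 5.59, 5.57 and 5.84 on the 4 null arrays, with no overlap, the null values lying below the first quartile of all group means, 6.095. Stat5b read 7.89 to 8.06 in control and 6.94 to 7.33 in null cells. On its other probe set Stat5b read 8.21 to 8.48 in control and 4.96 to 5.42 in null cells. The other probe set of Stat5a read 7.13 to 7.75 in control and 4.32 to 4.90 in null cells. Whether these probe sets lie in the deleted part could not be read from the labels. The receptor gene Ghr was measured high in both genotypes, at 11.94 to 12.05 in control and 12.86 to 13.31 in null cells.

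All 12 fibroblast markers stayed above the first quartile on every array, with a summed level (on the linear scale) of 167286 to 176663 in control and 189258 to 201046 in null cells. The control arrays also carried macrophage and leukocyte markers, and the null arrays did so far less. Over the 17 markers measured the summed level was 41245 to 45944 on the control arrays, with and without GH, and 2731 to 3176 on the null arrays. No marker lay below the first quartile on a control array, and 5 to 9 did on each null array. All 17 were called lower in null cells without GH, against 22.7% of all genes, with a median log2 difference of -3.76. C1qa averaged 12.06 in control and 6.20 in null cells without GH, and the pan-leukocyte gene Ptprc averaged 9.20 and 4.26. In bulk RNA fewer cells of a type and less RNA per cell cannot be told apart. The 2 genotypes thus differ widely before any GH: 8640 genes (47.5%) were called between them without GH.

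GH changed 476 genes in control cells (2.62% of 18193), of which 313 rose (1.72%) and 163 fell (0.896%), and 2130 in null cells (11.7%), of which 975 rose (5.36%) and 1155 fell (6.35%). The interaction was called for 938 genes (5.16%), of which 515 were higher (2.83%) and 423 lower (2.33%), at an adjusted p below 0.05 in limma. With each array centred on its median gene value, 697 interactions were higher and 311 lower, and the null response counted 1144 rises and 726 falls, so the split of the null response into rises and falls turned with the centring. At an unadjusted p below 0.05 the interaction counted 3160 genes. A difference of at least 2-fold was found for 206 of the 938 genes. The median log2 interaction over all genes was -0.05. The control and null responses rest on separate arrays, and across all genes, which are not independent replicates, they correlated with r = 0.359.

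Each of the 938 genes was placed by its calls. The response was lost for 153 genes (called in control cells, not in null cells), gained for 597 (called in null cells only) and reversed for 52 (called in both, in opposite directions). It was weakened for 27, strengthened for 43, and for 66 neither response was called. A response that missed the test is not shown to be 0: of the 94 lost rises, 61 had a 95% interval of the null response that stayed below 50% of the control response, and of the 59 lost falls 30 did. Conversely, of the 228 genes called in both genotypes, 106 changed in the same direction with no interaction call. A further 95 genes were called in control cells only and 1305 in null cells only, with no interaction call, and so are not shown to differ between genotypes.

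**Figure D1:**
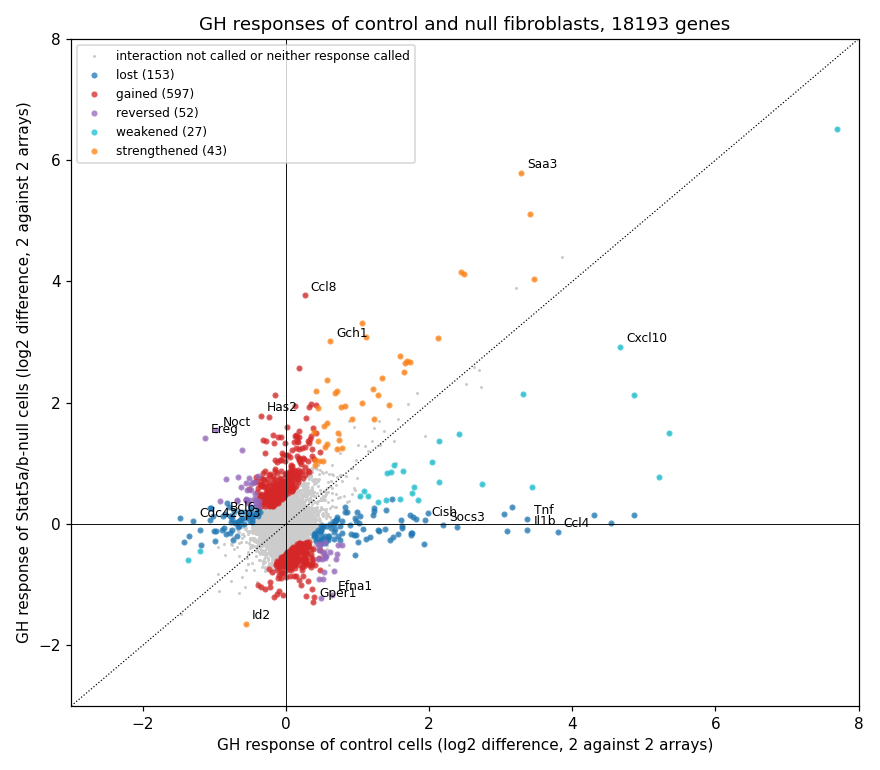
GH response in null cells (vertical axis, log2) against GH response in control cells (horizontal axis, log2), 1 point per gene over 18193 genes, coloured by class of the 938 called interactions. Genes of lost response lie along the horizontal axis, genes of gained response along the vertical axis, and the 52 reversed genes at the upper left and lower right.

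The counts moved when single arrays were left out. The interaction count of 938 became 437 without null with GH replicate 2, 459 without null with GH replicate 3, 561 without control with GH replicate 3, 586 without control with GH replicate 2 and 585 without null without GH replicate 2. The control response count of 476 became 295 without control with GH replicate 2 and 316 without replicate 3. The null response count of 2130 became 818 and 1034 without replicates 2 and 3 with GH, and 984 and 1344 without replicates 2 and 3 without GH. Rises outnumbered falls in each of these 4 null fits, at 520 and 298, 546 and 488, 517 and 467, and 776 and 568. The lost class of 153 held 99 genes without control with GH replicate 3. The gained class of 597 held 231 and 242 genes without null with GH replicates 2 and 3, 306 and 368 without null without GH replicates 2 and 3, and 365 and 353 without control with GH replicates 2 and 3. The reversed class of 52 held 26 and 29 genes without control with GH replicates 2 and 3, 29 and 31 without null without GH replicates 2 and 3, and 27 without null with GH replicate 2 and, separately, replicate 3. Of the 938 genes, 343 kept their interaction call without each array in turn, among them 69 of the 153 lost, 176 of the 597 gained and 52 of the 52 reversed. In a reversed gene the 2 called responses add up in the interaction, so by its definition that call is kept more easily than in the other classes. The reversed class itself shrank, as given above. Some of the genes described by name lost the interaction call in at least 1 of the fits that leave out an array. Among STAT5 targets and JAK-STAT components they were Lifr, Myc, Cdkn2b, Jak2, Sh2b3 and Socs5. Among lost and weakened responses they were Spry2, Dusp6, Ccn1, Srf, P2ry6, Tnfaip8l2, Heph, Pdgfra, Cxcl10, Cxcl2 and Id1. Among gained and strengthened responses they were Ccl11, Cpeb2, Cthrc1, Col4a5, Irx2, Ms4a7, Cdkn1b, Cdkn2d, Arg2 and Il6. Adgre1, with neither response called, lost it too.

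Cish, Socs2 and Socs3, feedback genes of JAK-STAT signalling, rose with GH in control cells and their null responses were not called. Cish, an inhibitor of the receptor, read 8.63 and 8.36 without GH and 10.48 and 10.41 with GH in control cells, and 7.91, 7.88, 7.88 and 8.04 on the null arrays in the same order. The control arrays with GH stood apart from the rest, and the null groups overlapped. Its log2 control response was 1.95 ± 0.11 (SE), a 3.86-fold rise, its null response 0.06 ± 0.11 with a 95% interval of -0.17 to 0.29, and the interaction -1.88 ± 0.15 (adjusted p = 1.74e-05 in limma). Socs3, which binds receptors and JAK2, read 8.44 and 8.20 without GH and 10.47 and 10.54 with GH in control cells, and 9.07, 9.12, 8.96 and 9.18 in null cells. Its interaction was -2.21 ± 0.15 (adjusted p = 5.22e-06), and the null level without GH lay above the control level without GH. Socs2, a feedback inhibitor of GH signalling, read 9.37 and 9.50, then 10.82 and 10.84 in control cells, and 8.26, 8.25, 8.37 and 8.60 in null cells. Its null response of 0.24 ± 0.10 missed the test with a 95% interval of 0.02 to 0.45, so a small rise in null cells is within the interval. Its interaction was -1.17 ± 0.14 (adjusted p = 0.00042), and 4 of its 5 other probe sets were called in the same direction.

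Bcl6, a transcriptional repressor that GH is known to lower through STAT5, went the other way. It read 8.33 and 8.55 without GH and 7.68 and 7.45 with GH in control cells, and 9.53, 9.68, 9.74 and 9.74 in null cells. It fell by 0.87 on the log2 scale in control cells, the null response was 0.14 ± 0.11, and the interaction was 1.01 ± 0.15 (adjusted p = 0.00238). Every null array lay above every control array. On the other probe set of Bcl6 the interaction of 0.64 was called, but the control response of -0.47 missed the test. Igf1 did not pass: it read 9.004, 9.14, 9.25 and 9.28 in control and 11.38, 11.40, 11.69 and 11.57 in null cells, with an interaction of 0.04 ± 0.13 and a 95% interval of -0.24 to 0.32. Of the 24 STAT5 and GH target genes measured, 7 had a called interaction, against 5.16% of all genes. Of these 4 were higher and 3 lower, and the list median was 0.02 against -0.05 over all genes. The list was chosen with earlier results of these data known. The 7 called were the 4 genes above with a lost response and 3 with a rise gained in null cells, Lifr, Myc and Cdkn2b.

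**Figure D2:**
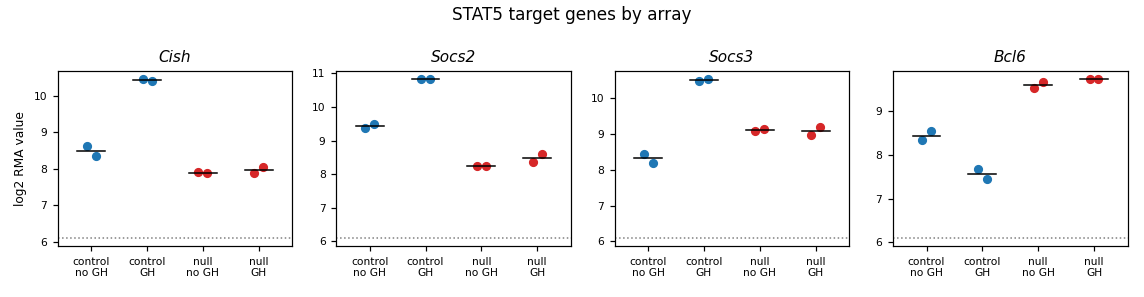
Log2 expression of Cish, Socs2, Socs3 and Bcl6 on each of the 8 arrays (points), with group means (bars), control in blue and null in red; the dotted line is the first quartile of all group means, 6.095. The control arrays with GH stand above the control arrays without GH for the first 3 genes and below them for Bcl6, and no null response was called.

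The RefSeq window of 250 bases before to 50 bases after each start was searched on both strands for 4 motifs, with 717 of the 938 genes matched. The motifs searched were TTCNNNGAA for STAT, GGGNNTTTCC for NF-kappaB, TGANTCA for AP-1 and the CArG box of serum response factor. Over all 32851 windows they were found in 8.30%, 1.63%, 7.81% and 1.63%, and over the 18109 windows of tested genes in 7.21%, 1.585%, 6.38% and 1.35%. A gene can have several windows, so the shares are of windows and not of genes. In the 101 windows of lost rises, the STAT motif was found in 11 (10.9%) and the NF-kappaB motif in 3 (2.97%). Lost falls, the class of Bcl6, held the STAT motif in 5 of 58 windows (8.62%) and the NF-kappaB motif in 2 (3.45%). Gained falls held the STAT motif in 13 of 266 windows (4.89%) and the NF-kappaB motif in 3 (1.13%). In the 344 windows of gained rises, the STAT motif was found in 21 (6.10%) and the NF-kappaB motif in 11 (3.20%). The weakened rises held the NF-kappaB motif in 6 of 28 windows (21.4%) and the strengthened rises in 6 of 32 (18.8%). The AP-1 motif was found in 10 windows of lost rises (9.90%), 18 of gained rises (5.23%), 2 of weakened rises (7.14%) and 9 of strengthened rises (28.1%). The CArG box was found in 3, 3, 1 and 0 of these windows. None of the printed stretches holds another of the 4 motifs overlapping with the one in capitals. Among the genes named below, the lost genes Il1b, Tnf, Cdc42ep3 and Spry2 had no STAT motif in their windows. Parp16 and Dbp, with a fall gained in null cells, had one. Socs2 had no window to search. A match is a run of letters and not a shown binding site.

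Beyond the feedback genes, the 94 rises that were lost in null cells included cytokine and chemokine genes of the inflammatory response. Ccl4, a chemokine that draws monocytes and T cells, read 8.20 and 8.21 without GH and 12.05 and 11.96 with GH in control cells. On the null arrays it read 7.69, 7.86, 7.60 and 7.70, so the null groups overlapped below every control array. Its control response was 3.79 ± 0.09, a 13.9-fold rise, and its interaction -3.92 ± 0.13 (adjusted p = 1.60e-08). Il1b, the inflammatory cytokine interleukin-1 beta, read 6.23 and 6.19, then 9.57 and 9.59 in control cells and 6.26, 6.17, 6.10 and 6.14 in null cells. The null values of Il1b sit at the first quartile, where a fall could not be read. Tnf, tumour necrosis factor, read 7.21 and 7.07, then 10.48 and 10.55 in control cells and 6.69, 7.03, 6.80 and 7.08 in null cells, with an interaction of -3.29 ± 0.18.

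Ccrl2, a receptor that binds chemerin, read 7.33, 7.22, 10.46 and 10.41 in control and 7.23, 6.999, 7.46 and 7.33 in null cells. Tnfsf9, a ligand that costimulates T cells, read 7.63, 7.82, 10.76 and 10.78 in control and 8.996, 8.87, 8.99 and 9.21 in null cells. In both genes the control arrays with GH stood apart from all the others. The interactions were -2.88 ± 0.14 and -2.87 ± 0.15. Ccl3, Cd83, Clec4d and Clec4e, all genes of activated myeloid cells, were below the first quartile in a group and are given by level only. Ccl3 rose in control cells to 11.94 and 11.90 and read 5.07 to 5.64 in null cells. Clec4e, a receptor for damaged cells and fungi, reached 9.76 and 9.91 with GH in control cells and read 4.58 to 4.85 in null cells. Cd83 read 10.39 on both control arrays with GH and 5.09 to 5.48 in null cells, and Clec4d read 8.88 to 10.16 in control and 5.00 to 5.78 in null cells.

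Of the 94 lost rises, 38 were below the first quartile in a group and 30 in both null groups. The macrophage and leukocyte markers moved with the genotype beside them, from a summed level of 41245 to 45944 in control to 2731 to 3176 in null cells, and their part in these lost rises was not tested. Among those markers themselves, 3 of 17 had a called interaction, against 5.16% of all genes, and all 3 were lower, Cd14, Spi1 and Adgre1. Dusp2, a phosphatase of ERK and p38 kinases found in leukocytes, also lost its rise, reading 7.12, 7.17, 8.997 and 8.78 in control and 7.19, 7.03, 6.94 and 6.96 in null cells.

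In 59 genes a fall in control cells was lost in null cells. Of such genes 35 and 34 were found without control with GH replicates 2 and 3, 37 and 38 without null with GH replicates 2 and 3, and 28 with values below the first quartile raised to it. Cdc42ep3, an effector of the GTPase CDC42 on the cytoskeleton, read 11.09 and 11.41 without GH and 10.00 and 9.92 with GH in control cells, and 11.40, 11.32, 11.39 and 11.41 in null cells. Its control arrays with GH were the only low ones of the 8, and its interaction was 1.34 ± 0.15 (adjusted p = 0.000304). Hbegf, a ligand of the EGF receptor, read 10.90, 11.07, 9.79 and 10.09 in control and 9.21, 9.01, 9.44 and 9.32 in null cells, with an interaction of 1.32 ± 0.17. Its null values were below the control values throughout, and the null response of 0.27 ± 0.12 missed the test. The other probe set of Hbegf, tested alone, had a called control response of -0.94 and a called null response of 0.38. By those calls Hbegf was reversed and not lost. Ptger4, a receptor for prostaglandin E2, read 9.32, 9.33, 8.45 and 8.09 in control and 7.95, 8.02, 8.25 and 8.26 in null cells. Htr1b, a serotonin receptor, read 10.80, 10.84, 10.09 and 9.91 in control and 7.56, 7.85, 8.16 and 7.93 in null cells. The other probe set of Htr1b, above the first quartile on every array, missed the test with an interaction of 0.16. No control fall was called on it either.

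Spry2, which restrains the ERK pathway, read 9.48, 9.90, 8.81 and 8.52 in control and 10.88, 10.70, 10.99 and 10.85 in null cells. The other probe set of Spry2 had the same sign and missed the test. Of the 17 Sprouty and DUSP genes of ERK feedback, 5 had a called interaction, against 5.16% of all genes. Of these 4 were higher and 1 lower, and the list median was 0.13. Spry1, Spry2 and Dusp6 lost a fall, Dusp2 lost a rise and Dusp4, a phosphatase of ERK, was reversed, falling by 0.83 in control cells and rising by 0.75 in null cells. Of the 23 actin-SRF and YAP target genes, 4 had a higher interaction, against 2.83% of all genes. All 4 were lost falls: Ankrd1, Ccn2, Ccn1 and Srf. Ankrd1, a cardiac repeat protein and YAP target, read 13.18, 13.10, 12.35 and 12.47 in control and 12.55, 12.53, 12.68 and 12.84 in null cells. Ccn1 is uncertain, because 1 of its other probe sets fell in control cells too (interaction 0.67) while 2 others went the opposite way and were called (interactions -0.91 and -0.88). P2ry6, Cxcr4, Tnfaip8l2 and Heph were below the first quartile in a group. Cxcr4, the receptor for the chemokine CXCL12, read 8.62 and 8.82 and then 7.56 and 7.49 in control cells, and 5.00 to 5.18 in null cells, below the level at which a fall could be read. P2ry6 likewise read 9.23 without GH and 8.62 and 8.47 with GH in control cells and 5.38 to 5.62 in null cells. Tnfaip8l2 fell from 7.38 and 7.50 to 6.53 and 6.84 in control cells and read 5.88 to 6.29 in null cells. Heph was dim in control cells at 4.36 to 4.92 and read 7.06 to 7.14 in null cells.

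**Figure D3:**
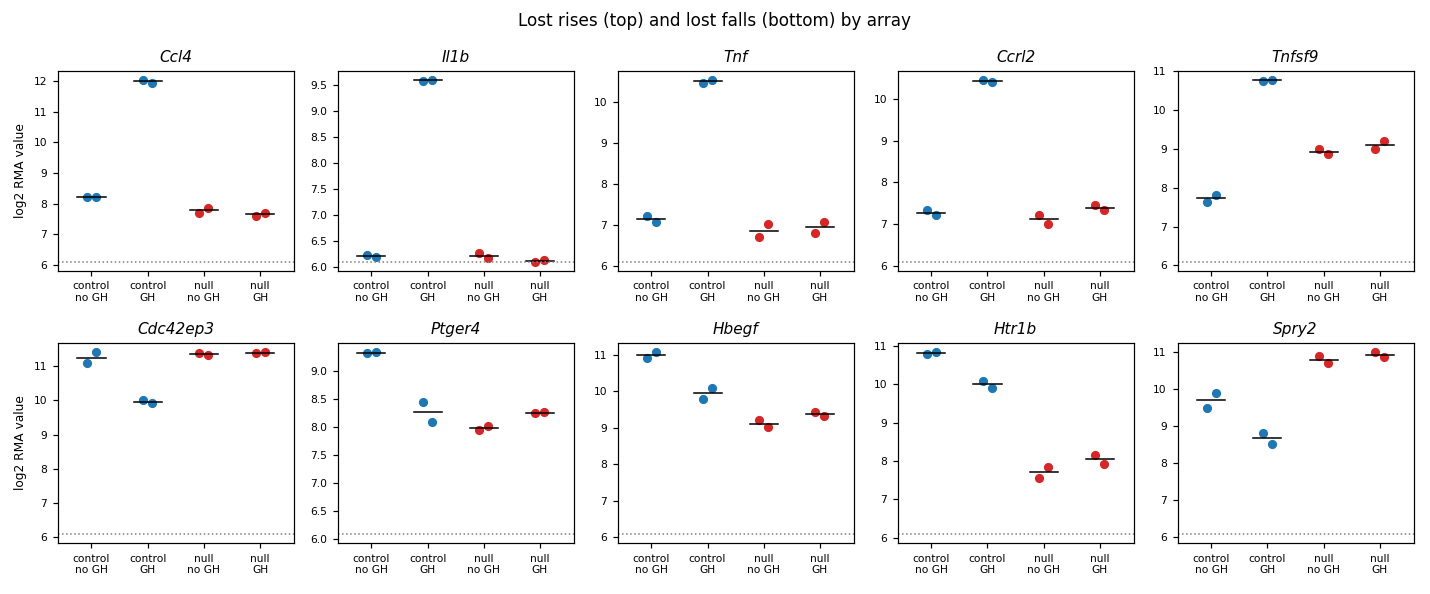
Log2 expression by array (points) with group means (bars) for 5 lost rises (top) and 5 lost falls (bottom); control in blue, null in red, dotted line at 6.095. In the top row the control arrays with GH stand alone above the rest; in the bottom row the control arrays fall with GH and no null response was called.

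Reversal was found for 52 genes, 23 of them from a rise to a fall and 29 from a fall to a rise. Leaving out 1 array gave 10 to 21 of the former and 13 to 20 of the latter. Ereg, epiregulin, a ligand of the EGF receptor, read 9.75 and 9.97 and then 8.90 and 8.55 in control cells, and 8.21 and 8.44 and then 9.84 and 9.65 in null cells. It thus fell by 1.14 in control cells and rose by 1.42 in null cells, with an interaction of 2.56 ± 0.19 (adjusted p = 1.03e-05). Noct, a circadian phosphatase, read 10.13 and 10.20 and then 9.29 and 9.10 in control cells, and 9.24 and 9.27 and then 10.84 and 10.76 in null cells, with an interaction of 2.51 ± 0.13 (adjusted p = 5.66e-07). Klf5, a Krüppel-like transcription factor, read 10.17, 10.13, 9.52 and 9.56 in control and 10.46, 10.44, 11.52 and 11.81 in null cells. Its interaction was 1.83 ± 0.14, and its other 2 probe sets had the same sign and missed the test.

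Efna1, an ephrin ligand, rose in control cells from 6.30 and 6.58 to 7.01 and 7.16 and fell in null cells from 8.33 and 8.38 to 7.08 and 7.29. Ppp1r3c, which targets protein phosphatase 1 to glycogen, rose from 7.78 and 7.65 to 8.28 and 8.13 in control cells and fell from 11.26 and 11.41 to 10.14 and 10.10 in null cells. Fam110a rose from 8.61 and 8.55 to 9.26 and 9.23 in control cells and fell from 8.57 and 8.47 to 7.64 and 7.87 in null cells. The interactions were -1.82 ± 0.16, -1.70 ± 0.14 and -1.43 ± 0.14. Of these 3, only Fam110a began near the same level in both genotypes. Lpxn, an adaptor protein of leukocytes, was reversed by its calls. It read 7.94, 8.03, 7.41 and 7.45 in control and 4.50 to 5.29 in null cells. All its null values lay below the first quartile, where a rise could not be read. Npas4, Saa1 and Snord89 were reversed by their calls as well, but Saa1 and Snord89 lay below the first quartile in all 4 groups and Npas4 in 3, so they are listed without a size.

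The gained class was the largest of the classes. Ccl8, a chemokine that draws monocytes, read 8.30, 8.42, 8.65 and 8.59 in control and 8.62, 8.46, 12.24 and 12.38 in null cells. The 2 null arrays with GH stood apart from the other 6, at a 13.7-fold rise, and the interaction was 3.51 ± 0.14 (adjusted p = 3.52e-08). Has2, which makes hyaluronan, read 9.67, 9.67, 9.34 and 9.30 in control and 8.17, 8.29, 10.05 and 9.97 in null cells, with an interaction of 2.13 ± 0.12. Mex3b, an RNA binding protein, read 8.51, 9.05, 8.62 and 8.29 in control and 9.01, 8.96, 10.53 and 10.23 in null cells. Fosl1, a subunit of AP-1, read 9.45, 9.59, 9.33 and 9.35 in control and 8.58, 8.42, 9.88 and 10.05 in null cells. Ptgs2, the inducible enzyme of prostaglandin synthesis, read 11.34, 11.53, 11.31 and 11.001 in control and 10.09, 10.16, 11.58 and 11.40 in null cells. For Has2, Fosl1 and Ptgs2 the null values without GH lay below every control value, and the null values with GH were near or above the control values without GH. Olr1, a receptor for oxidised lipoprotein, read 5.98 and 6.11 and then 8.09 and 7.88 in null cells and 9.21 to 9.58 in control cells. Ccl11, the chemokine eotaxin, read 7.41 and 7.27 and then 8.25 and 8.16 in null cells and 5.87 to 6.15 in control cells. Cpeb2 and Taf15 rose in null cells with a group below the first quartile as well, and the other probe set of Taf15 did not share the sign.

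The gained falls were led by Gper1, a membrane receptor for estrogen, which read 6.72, 6.49, 6.89 and 7.07 in control and 8.09, 8.20, 6.89 and 6.83 in null cells, with an interaction of -1.66 ± 0.15 (adjusted p = 4.25e-05). The other probe set of Gper1 had the same sign and missed the test. Bmf, a pro-apoptotic member of the BCL2 family, read 6.64, 6.71, 7.17 and 6.96 in control and 8.24, 8.34, 7.08 and 7.10 in null cells, with an interaction of -1.59 ± 0.13. Both other probe sets of Bmf had the same sign and missed the test. Parp16, an enzyme of the endoplasmic reticulum, read 6.38, 6.45, 6.73 and 6.66 in control and 8.23, 8.04, 6.95 and 6.94 in null cells. In all 3 the null arrays without GH stood above the other 6. Dbp, a transcription factor of the clock, read 9.58, 9.64, 10.03 and 9.91 in control and 9.05, 9.0, 7.85 and 8.05 in null cells. Rreb1, a zinc finger factor of Ras signalling, read 8.56, 8.68, 9.26 and 8.93 in control and 8.70, 8.96, 8.06 and 8.09 in null cells, with 2 of its 4 other probe sets called in the same direction. Cthrc1, Col4a5, Irx2 and Ms4a7 fell in null cells to below the first quartile and are not sized. In control cells they read 12.17 to 12.40, 10.39 to 10.63, 9.97 to 10.07 and 9.64 to 9.96. The second probe set of Col4a5 did not share the sign.

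**Figure D4:**
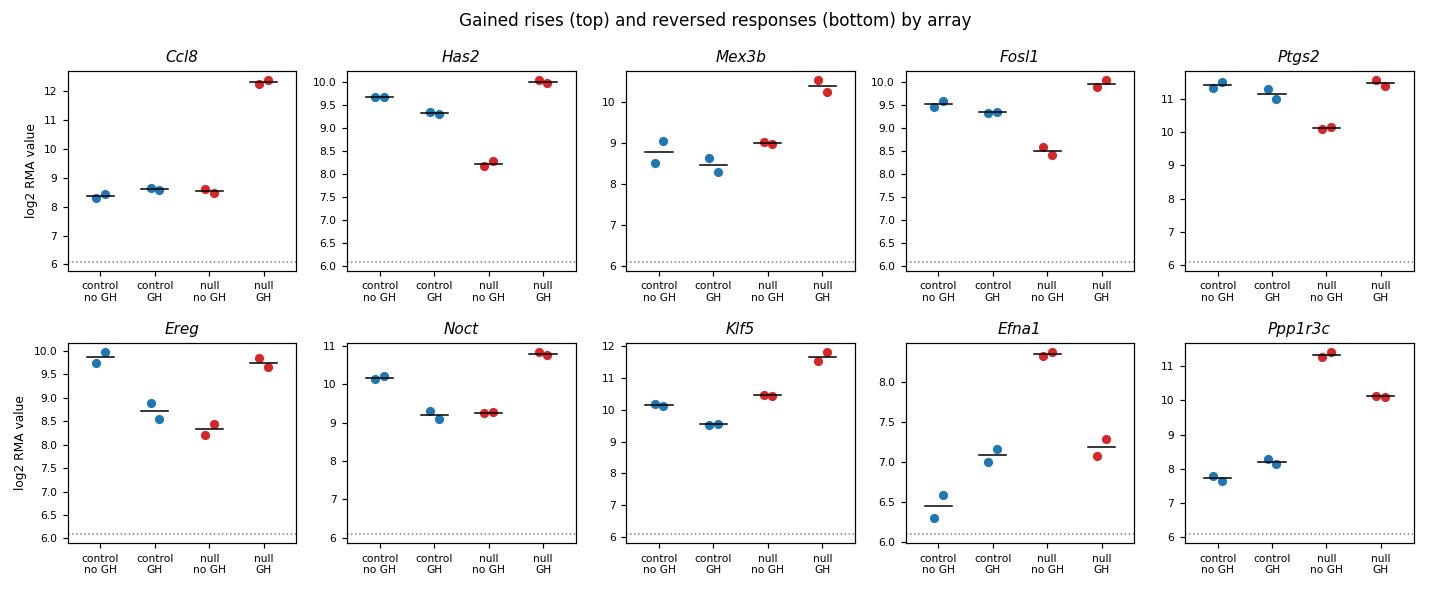
Log2 expression by array (points) with group means (bars) for genes with a gained or a reversed GH response; control in blue, null in red, dotted line at 6.095. For the gained genes the null arrays change with GH and no control response was called; for the reversed genes the 2 genotypes move in opposite directions.

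A response in both genotypes of unequal size was found for 27 weakened and 43 strengthened genes. The weakened class held 11 and 13 genes without null with GH replicates 2 and 3, and 16 and 15 without null without GH replicates 2 and 3. The strengthened class held 26 and 25 without control with GH replicates 2 and 3. With values below the first quartile raised to it, 11 were weakened and 19 strengthened. Cxcl10, an interferon-inducible chemokine, read 5.83, 6.41, 10.96 and 10.62 in control and 6.81, 6.18, 9.32 and 9.51 in null cells, a rise in both with an interaction of -1.75 ± 0.30 (adjusted p = 0.00505). Nlrp3, the inflammasome sensor, read 7.89, 7.77, 9.73 and 9.63 in control and 7.68, 7.34, 7.95 and 7.85 in null cells, with an interaction of -1.46 ± 0.16. Nfkbia read 12.35, 12.47, 14.48 and 14.42 in control and 13.55, 13.36, 14.50 and 14.45 in null cells. The genotypes overlapped with GH and stood apart without it, and the 4 other probe sets of Nfkbia were called in the same direction. Cxcl2, a neutrophil chemokine, reached 12.70 and 12.79 in control and 11.37 and 11.36 in null cells from below the first quartile. Cd14, Acod1, Gem and Gbp2b were called as rises in both genotypes, with a lower rise in null cells. Of these, Acod1, Gem and Gbp2b had a group below the first quartile. Acod1, which makes itaconate, reached 11.22 and 11.21 in control and 7.21 on both null arrays. Gem, a small GTPase, read 5.86 and 5.80 and then 8.60 and 8.52 in control cells. In null cells it read 10.39 and 10.31 and then 11.12 and 10.90. Gbp2b, a guanylate-binding protein, read 9.61 and 9.52 with GH in control cells and 5.28 and 5.29 in null cells. All null values of Gbp2b lay below the first quartile, where a rise could not be read.

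The weakened falls were Id1 and Snai2. Id1, an inhibitor of helix-loop-helix factors, read 11.77, 11.88, 10.44 and 10.46 in control and 10.23, 10.04, 9.42 and 9.67 in null cells. Snai2, the Slug repressor, read 11.78, 11.81, 10.69 and 10.50 in control and 12.49, 12.62, 12.13 and 12.10 in null cells. The other probe set of Snai2 had the same sign and missed the test, with an interaction of 0.49. The strengthened rises were led by Saa3, an acute phase protein, which read 7.68, 7.73, 11.11 and 10.88 in control and 8.12, 7.51, 13.58 and 13.63 in null cells, with an interaction of 2.50 ± 0.22. Gch1, the first enzyme of tetrahydrobiopterin synthesis, read 7.73, 7.92, 8.47 and 8.41 in control and 6.98, 6.94, 9.88 and 10.06 in null cells. Relb, an NF-kappaB subunit, read 8.40, 8.41, 10.05 and 10.14 in control and 8.79, 8.79, 11.40 and 11.55 in null cells. Csf1, the macrophage growth factor and the last of the printed promoters, was chosen after its values were seen: it read 13.03, 12.96, 13.43 and 13.46 in control and 11.71, 11.82, 13.70 and 13.66 in null cells. Id2 was the only strengthened fall, from 10.40 and 10.23 to 8.60 and 8.75 in null cells and from 10.89 and 11.04 to 10.37 and 10.44 in control cells. On a second bright probe set of Id2 the interaction of -1.31 was called, but the control response of -0.63 missed the test. A further, dimmer probe set of Id2 missed the interaction test at -0.21. Sele, Arg2, Cxcl5 and Il6 were called as rises in both genotypes, each with a group below the first quartile. With values below the first quartile raised to it, the interaction of Il6 turned negative and neither Il6 nor Cxcl5 was called. Leaving out 1 array ended the call of Arg2 in 7 of 8 fits and of Il6 in 4. Sele, an adhesion molecule for leukocytes, reached 6.38 and 6.32 in control and 8.64 and 8.47 in null cells, and Cxcl5 read 9.52 to 9.62 with GH in both.

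Across lists of genes, the shares with a called interaction stand beside 5.16% over all genes. Of 18 NF-kappaB subunits, inhibitors and feedback genes, 8 were higher and 4 lower, of which 6 had a strengthened rise, with a rise called for 15 in control and 13 in null cells and no fall in either. Of 23 chemokines 7 were higher and 7 lower, with a median of -0.16. A rise was called for 15 chemokines in control and 13 in null cells, and a fall for none and 1. Of 34 inflammatory cytokines, receptors and effectors 12 were higher and 10 lower, with a rise called for 20 in control and 19 in null cells and a fall for none and 2. The median log2 responses of the 3 lists, called or not, were 1.36, 1.31 and 0.80 in control and 1.37, 0.87 and 0.66 in null cells, against -0.017 and -0.07 over all genes. The macrophage and leukocyte markers differed between the genotypes beside these lists too, and their part was not tested. Of 23 STAT3 target and acute phase genes 9 were higher and 1, Socs3, was lower, with a median of 0.40. Osmr, a receptor of oncostatin M, read 11.32, 11.40, 11.28 and 11.30 in control and 10.07, 10.20, 11.66 and 11.46 in null cells. Of 12 AP-1, ATF and MAF factors 5 were higher and none lower: Fosl1, Maff, Jun and Jdp2 with a rise gained in null cells, and Atf3 with a fall lost. Jun read 10.85, 10.99, 11.29 and 11.26 in control and 10.34, 10.43, 11.75 and 11.93 in null cells. Of 33 interferon response genes 6 were higher and 2 lower. Gbp2 read 8.49, 8.58, 9.68 and 9.50 in control and 7.85, 8.09, 11.31 and 11.24 in null cells, and Ifit3 was reversed, falling by 0.39 in control cells and rising by 0.80 in null cells.

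Among 27 receptor and JAK-STAT components 4 were higher, Jak2, Ptpn1 and Sh2b3 with a rise in null cells and Socs5 with a lost fall. Leaving out 1 array ended the call of Sh2b3 in 7 of 8 fits, of Socs5 in 6 and of Jak2 in 3, and Ptpn1 kept it. Jak2, the kinase bound to the receptor, read 9.82, 9.71, 9.92 and 9.87 in control and 9.35, 9.58, 10.46 and 10.22 in null cells. Of 24 p53 target genes 6 were higher and 3 lower. Fas, a death receptor, rose in both genotypes, from 9.25 and 9.41 to 9.97 and 9.84 in control cells and from 7.25 and 7.38 to 9.75 and 9.63 in null cells. Of 8 CDK inhibitors 1 was higher and 2 lower. Cdkn2b, which blocks CDK4 and CDK6, read 12.22, 12.26, 12.22 and 12.17 in control and 11.29, 11.14, 11.62 and 11.70 in null cells, with an interaction of 0.49 ± 0.13 (adjusted p = 0.0482). That call was lost whichever of the 8 arrays was left out. Cdkn1b and Cdkn2d fell with GH in null cells, and their interaction calls were lost in 6 and 7 of the 8 fits that leave out 1 array. Cdkn1a, the p21 inhibitor, did not pass: it read 13.88, 13.76, 13.93 and 13.92 in control and 9.62, 9.52, 9.61 and 9.80 in null cells, with an interaction of 0.02 ± 0.14 and a 95% interval of -0.28 to 0.32.

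Of 27 TGF-beta and BMP genes 5 were higher and 1 lower, of 18 clock genes 3 and 2, of 28 EGR, NR4A, KLF and other immediate early genes 4 and 5, of 20 ATF4 stress genes 2 and 1, and of 37 cell cycle genes 1 and 2. Inhba, a subunit of activin, read 13.48, 13.37, 13.23 and 13.04 in control and 10.37, 9.95, 10.91 and 11.15 in null cells, and its other probe set did not share the sign. Nfil3, a transcription factor of the clock, lost its fall, reading 9.81, 9.74, 8.35 and 8.34 in control and 9.16, 9.25, 8.85 and 8.98 in null cells. Chac1, an enzyme that degrades glutathione, lost its fall too, reading 11.04, 11.06, 9.65 and 9.74 in control and 8.72, 8.67, 8.39 and 8.61 in null cells. Among 19 genes of cholesterol and fatty acid synthesis no interaction was called in limma, while 5 had an unadjusted p below 0.05. Of the fibroblast markers 1 of 12 was called, Pdgfra, with a lost rise. Of 7 adipocyte markers 1 was called, Pparg, with a fall gained in null cells. None of the epithelial, endothelial, skeletal muscle, neural and glial, or cartilage and bone markers was called in limma, with 1, 0, 0, 1 and 1 of them at an unadjusted p below 0.05. All lists are described by these counts and medians alone.

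**Figure D5:**
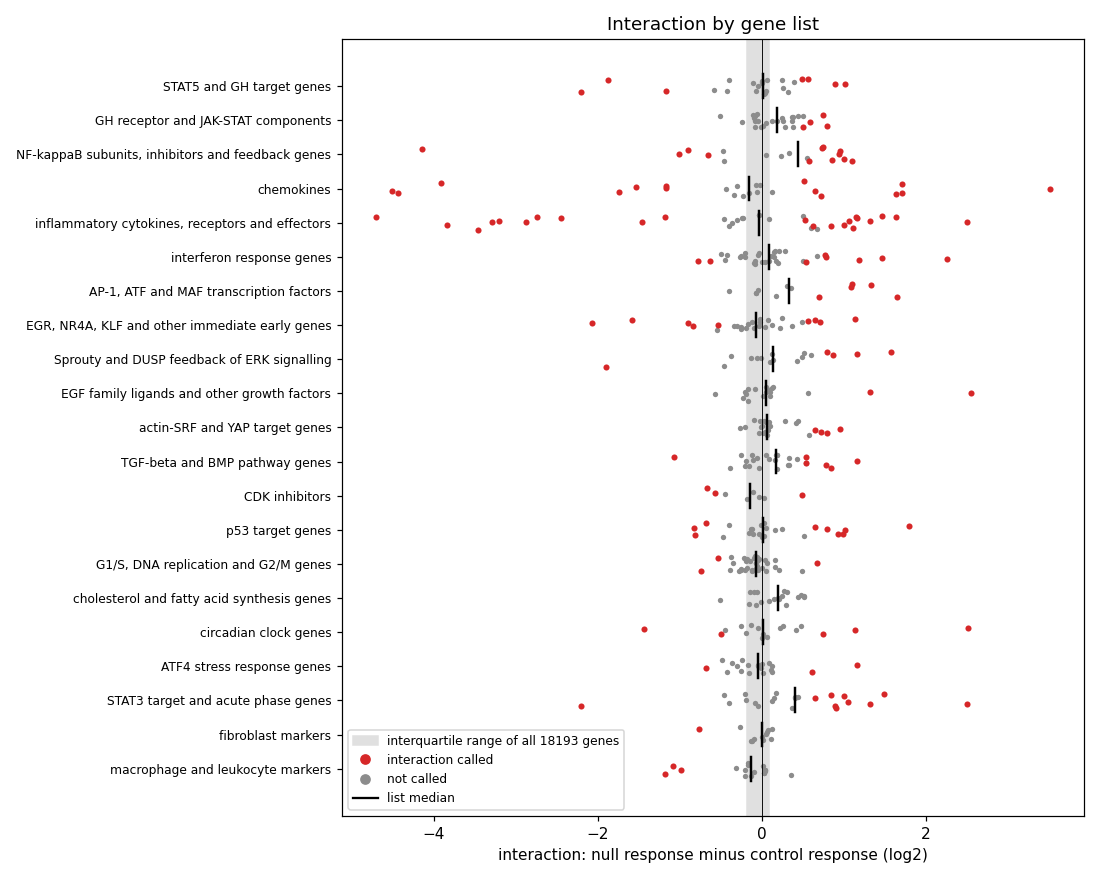
Log2 interaction of the members of the gene lists (points; red where the interaction was called), with the list median (black tick) and the interquartile range of all 18193 genes (grey band). The NF-kappaB, chemokine and inflammatory lists spread widely to both sides of the band, and the actin-SRF and YAP genes with a call all lie to its right.

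Other probe sets of the same genes offered a check on the choice of probe set alone. They were read on the same arrays from the same RNA, so a deviation of an array or a culture is shared between them. Agreement between probe sets is therefore not a replication of the response. No matching share is given for genes without a called interaction. For the 525 called genes with another probe set, only the brightest of the others was counted. This second probe set had the same sign for 476 genes and was also called for 194 of these. For 2 genes it had the opposite sign and was called. Further probe sets, such as those of Ccn1 that went the opposite way, were not counted. Where the second probe set was bright on every array, 354 of 371 had the same sign and 155 were also called.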

How the data were processed

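RNA of 8 arrays was measured on an Affymetrix mouse expression array. The authors deposited log2 values made by RMA (robust multi-array average) with Partek 6.10.0511, per the submitters' processing notes. No further settings are stated. RMA equalises the arrays, so a shift shared by most genes would be reduced, and the values carry no detection call. The members and gene lists were chosen with earlier results of these data known.

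Of 45101 probe sets 64 were controls. The platform annotation named 1 gene for 34945, several for 932 and none for 9160, and the last 2 kinds were left out. Symbols were updated through Entrez identifiers for 34741. The probe set with the highest mean stood for a gene, which gave 18193 genes. Array medians were 6.893 to 6.958, and 2 arrays per group limit the precision.

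A model of 1 mean per group was fitted in limma 3.58.1 (R 4.3.3), with 4 residual degrees of freedom, 7.82 prior degrees of freedom and a median residual SD of 0.0971. Errors are limma's standard errors, and adjusted p-values are limma's with Benjamini-Hochberg adjustment over 18193 genes. The fit was tested on simulated data. Genes whose mean in a group lay below the first quartile of all group means (6.095) are given by level, with no size of the difference.

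Genes were named by a rule: Cish, Socs2, Socs3, Bcl6, Igf1, Cdkn1a, Cdkn2b, Stat5a, Stat5b and Ghr always; the 5 bright genes with the largest interaction per direction of lost and gained, 3 of reversed, 2 of weakened and strengthened; per class the 4 highest dim genes; and up to 4 members per list by the smallest p. For 1 null array without GH the source label and the title carry different replicate numbers, and the title was used. The numbers were not taken as pairs. Alternatives were the mean of probe sets, each probe set alone, filters and a floor on dim genes, centring, a trended robust prior, treat against a 1.5-fold change, a replicate block and each array left out. Promoter windows came from RefSeq (GRCm38.p6), with 14452 genes matched by symbol.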

Additional observations from a re-analysis of the deposited data

Results flagged for a closer look

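The GH response differed between control and null cells by a test of the difference itself, limma's interaction term, for 938 genes. Among the bright genes named, the log2 interaction was negative for Ccl4 -3.92, Il1b -3.47, Tnf -3.29, Ccrl2 -2.88, Tnfsf9 -2.87, Socs3 -2.21, Cish -1.88, Efna1 -1.82, Cxcl10 -1.75, Ppp1r3c -1.70, Gper1 -1.66, Bmf -1.59, Parp16 -1.47, Nlrp3 -1.46, Fam110a -1.43, Dbp -1.43, Rreb1 -1.22, Socs2 -1.17 and Id2 -1.08. It was positive for Cdkn2b 0.49, Snai2 0.76, Id1 0.78, Bcl6 1.01, Spry2 1.16, Htr1b 1.16, Hbegf 1.32, Ptger4 1.32, Cdc42ep3 1.34, Ptgs2 1.64, Fosl1 1.65, Mex3b 1.71, Klf5 1.83, Has2 2.13, Gch1 2.39, Saa3 2.50, Noct 2.51, Ereg 2.56 and Ccl8 3.51. A further 28 named genes had a called interaction and a group below the first quartile, and their sizes are not given. Groups of 2 arrays are too small to single out an array that stands far from the others.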

How the results depend on the processing

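Interaction calls, control response calls, null response calls, and lost, gained and reversed genes numbered 938, 476, 2130, 153, 597 and 52. Raising values below the first quartile to it gave 514, 255, 1359, 92, 347 and 29, and treat against a 1.5-fold change gave 90, 109, 145, 34, 39 and 0. Testing each probe set alone gave 1621 interaction calls, 3598 null response calls and 1123 gained. Fitting the control arrays alone gave 316 control response calls. The cause of these shifts was not tested, apart from the higher number of units in the probe set test. Leaving out 1 array gave 437 to 872 interaction calls, 295 to 460 control and 818 to 2409 null response calls, 99 to 138 lost, 231 to 562 gained and 26 to 40 reversed. Centring the arrays gave 1008 interaction calls, of which 826 were among the 938.

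The replicate block gave 754 interaction calls, 747 of them among the 938, and Cdkn2b was no longer called. The difference of replicate 3 minus replicate 2, numbered by title, correlated between -0.279 and 0.129 across pairs of groups, and the numbers were not taken to pair the samples. The labels of 1 null array without GH carry conflicting numbers, and the other numbering would turn the sign of the correlations of its group. Among the named genes with a called interaction, leaving out 1 array lost 5 to 23 calls, the floor 41 and treat 71. Of them, 2 interactions changed sign: Il6 was -0.72 with the floor, and Ccn1 was -0.10 with the mean of its probe sets. Of 938 calls, 84 held in every alternative run and 232 in every one but treat. Signal over background limits the dim genes, whose differences are bounds at best.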
